A study of Mus musculus with 16 samples.

Results

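The middle of the mouse gut tube was compared with its ends at E8.75 (13 somites). Of the 16 libraries of the series, 8 came from 4 sections cut along the tube, and each was assigned to its section by its label: anterior, anterior-midgut, midgut-posterior and posterior, with 2 libraries each. The 4 anterior-midgut and midgut-posterior libraries are called the middle, and the 4 anterior and posterior libraries the ends. The protocol in the labels describes embryos from natural matings, with no treatment named. It states Afp-GFP TG/+ embryos (1 copy of a green reporter driven by Afp control sequences) for 13-somite gut tubes, and does not say separately whether the section libraries carried the reporter. Heads and extraembryonic membranes were taken off, torsos were loosened briefly with Pancreatin and Trypsin on ice, and the tubes were freed with needles before polyadenylated RNA was taken. The sources used here give neither the place of the cuts nor the number of embryos in a library. The labels do not say that 2 libraries of a section came from separate embryos, so p-values measure only the spread between these samples. That spread was estimated over all 16 libraries of the series. The others were bulk tissue and dissociated cells of E8.75 gut tubes, and extraembryonic (exVE) and emVE visceral endoderm cells of E7.5.

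At this stage the gut tube is a single epithelial sheet rolled into a tube, made of definitive endoderm with intermingled descendants of the visceral endoderm that earlier covered the embryo and fed it. Mesoderm around the tube, the notochord, the overlying ectoderm and the tail bud send signals such as fibroblast growth factors (FGFs), Wnts and retinoic acid, which help set where lung, liver, pancreas and intestine form. A comparison of one end with the other finds graded genes. The comparison made here asks instead which genes are higher or lower in the middle than the average of the ends. It does not require that the ends be alike.

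The section libraries held 70987960 to 84509973 counts each, and 17313 genes were tested in 1 edgeR quasi-likelihood fit over all 16 libraries. Epcam, an epithelial adhesion protein, stood at 160 to 393 CPM (counts scaled to the library total with TMM factors) in the 8 libraries. The endoderm factors Foxa2 and Sox17 were also present in all of them, at 17.2 to 95.5 and 15.2 to 53.1 CPM. Cdx2, the regulator of the hindgut, ran from 0.685 and 0.933 CPM in the anterior section to 322 and 209 CPM in the posterior one, in the order of the labels. The 2 posterior libraries were less alike than other replicates, and the list of visceral endoderm genes described later summed to 635 CPM in replicate 1 and 1971 CPM in replicate 2. In such bulk samples, fewer cells of a type and less RNA per cell cannot be told apart.

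The main comparison took the average of the 2 middle sections minus the average of the 2 ends on the log2 scale. In it, 1033 genes were higher in the middle, 5.97% of those tested, and 631 were lower, 3.64% (Benjamini-Hochberg adjusted p under 0.05). Of the 1033 genes, 919 had both middle means above both end means, 57 were above the anterior mean only and 57 above the posterior mean only. Of the 631, 529 had both middle means below both end means. The 4 middle libraries all lay above the 4 end libraries for 706 of the genes called higher, 4.08% of those tested, and all below them for 367 of the genes called lower, 2.12%. Among these non-overlapping genes the ends differed from each other by less than 1 on the log2 scale for 439 of the 706 and 281 of the 367. The higher mean of the 706 lay in the anterior-midgut section for 391 and in the midgut-posterior section for 315. Counts moved when single libraries were left out: the genes called higher numbered 569 without anterior replicate 1, 562 without anterior-midgut replicate 1, 659 without midgut-posterior replicate 1 and 651 without posterior replicate 1. Genes called lower numbered 287, 261, 293 and 328 without the same libraries, 400 without anterior-midgut replicate 2 and 291 without midgut-posterior replicate 2. Without posterior replicate 2 the counts were 1081 and 650. Leaving out the first replicate of the anterior, anterior-midgut and posterior sections took the 706 non-overlapping genes to 413, 420 and 460. The 367 became 193, 179 and 202 without the same libraries, and 191 and 187 without midgut-posterior replicates 1 and 2.

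**Figure D1:**
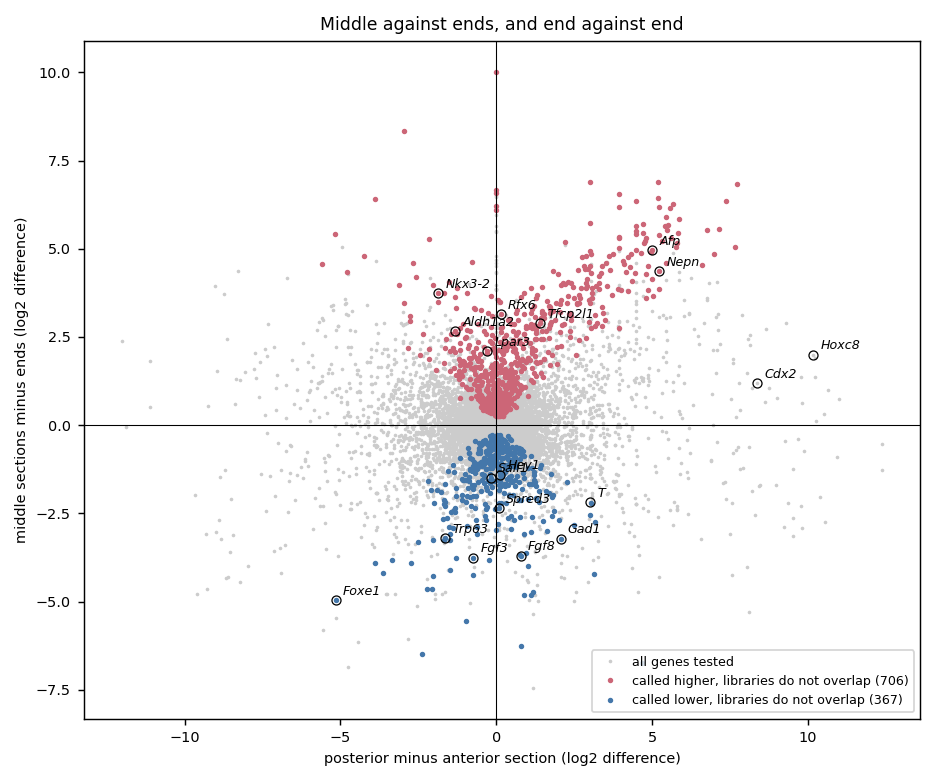
Each point is 1 of the 17313 genes tested. The vertical axis is the middle minus the ends and the horizontal axis the posterior minus the anterior section, both as log2 differences, so genes near the vertical line were alike at both ends. Red points are the 706 genes called higher and blue points the 367 called lower whose libraries do not overlap. Rfx6, Lpar3, Sall1, Spred3 and Hey1 lie close to the line, Afp and Nepn far to its right; points on the line itself far above 0 are genes with few or no counts at either end.

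A stricter rule asked that each middle section differ from each end in the same direction, with the largest of the 4 p-values adjusted over all genes. It was passed by 8 genes that were higher in the middle (0.0462%) and 5 that were lower (0.0289%). The higher genes were Rfx6, Tfcp2l1, Ephx2, FAM46A (spelled as in the files), Lpar3, Kcng1, Plekha6 and Lipa, and the lower ones Sp6, Spred3, Il17rd, Sall1 and Hey1. This rule depended on single libraries: with the same tool no gene passed in either direction without anterior replicate 1, anterior-midgut replicate 1, either midgut-posterior replicate or posterior replicate 1, while 21 higher and 9 lower genes passed without posterior replicate 2. Without anterior replicate 2 it called 9 and 3 genes, and without anterior-midgut replicate 2 it called 12 and 4. At an unadjusted p under 0.05 the rule was met by 474 higher and 183 lower genes with all libraries, and by 206 to 377 higher and 97 to 125 lower genes in those leave-outs that gave none. DESeq2 called 135 and 44. All 13 genes kept their call in the average comparison when each of the 8 libraries was left out in turn.

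Rfx6, a transcription factor needed for pancreatic endocrine cells, was nearly flat within the middle and low at both ends. It stood at 26.0 and 28.1 CPM in the anterior-midgut libraries and at 23.4 and 25.1 CPM in the midgut-posterior ones, against 2.11 and 3.42 CPM in anterior and 2.58 and 3.50 CPM in posterior libraries. All 4 middle libraries lay far above all 4 end libraries. The log2 difference was 3.14 (SE 0.23, adjusted p = 5.71e-05; adjusted p of the each-pair rule 0.0153), while the posterior differed from the anterior section by 0.14 (adjusted p = 0.895). Lpar3, a receptor for lysophosphatidic acid, had the same shape. Its levels were 34.8 and 28.7 CPM in the anterior-midgut, 26.9 and 29.9 CPM in the midgut-posterior, 5.83 and 9.79 CPM in anterior and 6.13 and 6.64 CPM in posterior libraries, a log2 difference of 2.09 (SE 0.16, adjusted p = 6.01e-05). The highest end library, anterior replicate 2, stayed well under the lowest middle one.

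Tfcp2l1, a transcription factor known from pluripotent cells and kidney epithelium, was lowest in the anterior section. It stood at 42.6 and 21.9 CPM in the anterior-midgut and at 43.9 and 40.8 CPM in the midgut-posterior libraries, against 3.40 and 2.70 CPM in anterior and 7.25 and 8.91 CPM in posterior ones (log2 difference 2.89, SE 0.20, adjusted p = 5.41e-05). Here the ends differed as well, the posterior section being higher by 1.40 (adjusted p = 0.00956). Ephx2, the soluble epoxide hydrolase, reached 5.09 to 10.4 CPM in the middle and 0.574 to 1.83 CPM at the ends (2.83, SE 0.24), also with a higher posterior end. Kcng1, a modifying subunit of voltage-gated potassium channels, stood at 17.1 to 22.5 CPM against 3.38 to 6.43 CPM (2.02, SE 0.18), and FAM46A, which belongs to a family of poly(A) polymerases, at 11.4 to 18.5 against 3.07 to 4.46 CPM (2.13, SE 0.18). The differences were smaller for Plekha6, a protein with a pleckstrin homology domain (41.5 to 56.5 against 15.8 to 22.2 CPM; 1.39, SE 0.11), and for Lipa, the lysosomal acid lipase (85.8 to 119 against 38.7 to 48.4 CPM; 1.27, SE 0.11).

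These 8 genes differed in how high they stood in the visceral endoderm libraries of E7.5 that the series also holds. Tfcp2l1 was at 176 and 221 CPM in the extraembryonic part and Plekha6 at 218 and 244 CPM, above every gut section. Ephx2, FAM46A and Kcng1 were also above every gut section there, with 40.0 and 48.6, 54.9 and 49.4, and 84.6 and 103 CPM, and Lipa, at 96.8 and 85.0 CPM, was above both ends, with 1 value within the range of the middle and 1 just under it. Rfx6 was at only 3.29 and 2.55 CPM there, within its range at the ends of the gut tube, and Lpar3 at 11.9 and 14.2 CPM lay below every middle library. In the emVE libraries of the same age Tfcp2l1 (70.6 and 87.8 CPM), Plekha6 (112 and 130 CPM), Ephx2 (25.0 and 28.0 CPM) and FAM46A (26.2 and 25.4 CPM) were again above every gut section, though lower than in the extraembryonic part. Kcng1, at 22.0 and 26.0 CPM, was near the highest middle library, and Lipa, at 78.2 and 85.1 CPM, lay between the ends and the middle. Rfx6 stood there at 8.38 and 8.13 CPM, above every end library and below every middle one, while Lpar3, at 7.75 and 6.70 CPM, was within the range of the ends. The TMM factors of the extraembryonic libraries, 0.787 and 0.775, raise their CPM relative to the others. These levels are a description, and no test was made of them.

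**Figure D2:**
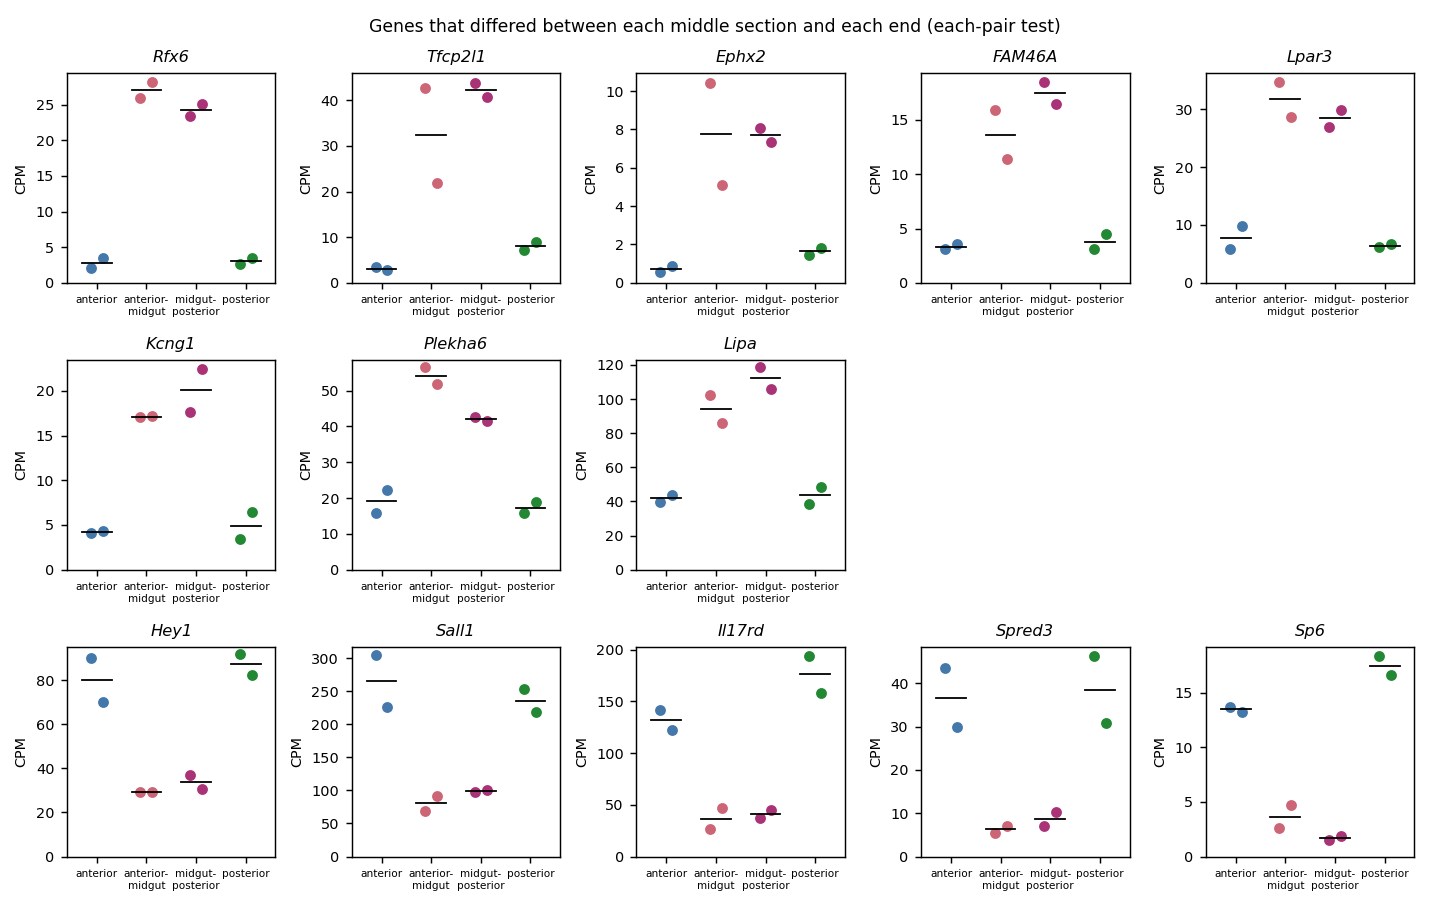
CPM (vertical axes, from 0) of the 13 genes that passed the each-pair rule, in the 8 section libraries; each dot is a library and each bar the mean of 2. The upper 2 rows hold the 8 genes that were higher in the middle and the bottom row the 5 that were lower, with no overlap between middle and end libraries in any panel.

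Hnf4a, a nuclear receptor of visceral endoderm and liver, was at 67.1, 24.2, 55.7 and 36.2 CPM in the middle libraries and at 0.221 to 12.3 CPM at the ends (4.40, SE 0.55, adjusted p = 0.000657). The core letters bound by HNF4 receptors, CAAAGTCCA, were searched on both strands of the 250 bases before each RefSeq start (GRCm38.p6); 531 of the 706 non-overlapping genes higher in the middle had such windows, 688 in all. These letters stood in 7 of 688 windows of genes higher in the middle (1.02%) and in 0 of 345 windows of genes lower there. Over all genes tested they stood in 57 of 16151 windows (0.353%). With so few matches, neither the 7 nor the 0 says much about the genes of its group. A gene can also have more than 1 window, so windows are not independent. The ETS letters CCGGAAG stood in 4.80%, 3.48% and 11.1% of the same windows. The GATA letters AGATAA stood in 8.14%, 4.93% and 6.64%, the FOX letters TGTTTAC in 3.20%, 2.61% and 2.37%, and the SOX letters ACAAAG in 15.3%, 13.9% and 13.3%. A match is a description and not a binding site.

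Of the 5 genes lower in the middle, Il17rd and Spred3 encode inhibitors of FGF receptor signalling. Spred3 stood at 5.42 and 7.11 CPM in the anterior-midgut and 7.08 and 10.2 CPM in the midgut-posterior libraries, against 43.6 and 29.8 CPM in anterior and 46.3 and 30.7 CPM in posterior ones. The middle libraries were uniformly low and both ends equally high: the log2 difference was -2.35 (SE 0.21, adjusted p = 8.99e-05), with 0.07 between the ends. Il17rd stood at 26.8 to 46.5 CPM in the middle and 122 to 194 CPM at the ends (-1.98, SE 0.17). Sp6, a zinc finger factor of ectoderm and limb bud, was at 1.48 to 4.67 against 13.3 to 18.3 CPM (-2.62, SE 0.20), and Sall1, a zinc finger factor of kidney and limb, at 68.9 to 101 against 219 to 305 CPM (-1.49, SE 0.12). Hey1, a target and effector of Notch, was at 29.3 to 37.1 against 70.3 to 92.0 CPM (-1.41, SE 0.12).

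Most genes of the FGF signalling list were lower in the middle. The counts of this and every later list stand beside 5.97% higher and 3.64% lower over all genes tested. Of its 24 genes, 14 were lower, 4 were higher and 6 did not pass, with a median log2 difference of -1.12 against 0.00155 over all genes tested, and 13 of the 14 did not overlap. Between 14 and 15 passed when any 1 library was left out, and 14 passed with either middle section or either end taken alone.

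The ligands fell furthest. Fgf8 stood at 5.07 and 7.09 CPM in the anterior-midgut and 1.69 and 5.31 CPM in the midgut-posterior libraries, against 54.5 and 37.3 CPM in anterior and 113 and 45.7 CPM in posterior ones (log2 difference -3.71, SE 0.47, adjusted p = 0.000657). Both ends were high and every middle library low. Fgf3 followed the same pattern, with 1.01 to 1.67 CPM in the middle and 28.5, 14.3, 14.5 and 11.1 CPM at the ends (-3.75, SE 0.53, adjusted p = 0.0013). Fgf4 was mainly anterior, at 14.3 and 7.68 CPM, with 2.83 and 1.41 CPM in the posterior and 0.0279 to 0.0780 CPM in the middle libraries. Fgf15 too was highest in the anterior section (17.5 and 9.39 CPM; 4.31 and 5.36 CPM in the posterior and 0.286 to 2.12 CPM in the middle). Fgf17, the 1 gene of the 14 whose libraries overlapped, was almost wholly posterior (67.6 and 33.0 CPM against at most 2.44 CPM elsewhere).

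Genes that FGF signalling switches on, among them its own inhibitors, were lower too. Etv4 and Etv5 encode ETS factors that serve as readouts of the pathway. Etv5 stood at 31.4 to 52.7 CPM in the middle and 101 to 136 CPM at the ends (-1.59, SE 0.16, adjusted p = 0.000173), and Etv4 at 4.54 to 20.0 against 30.5 to 147 CPM (-2.44, SE 0.24). The Sprouty inhibitors Spry4 (2.16 to 4.58 against 10.5 to 19.7 CPM; -1.98), Spry1 (-1.54) and Spry2 (-1.11) were lower, as were Spred1 (-0.88), Spred2 (-0.75) and the ERK phosphatase Dusp6 (47.2 to 106 against 156 to 187 CPM; -1.13). Of the receptors, Fgfr2 was higher in the middle, at 110 to 138 CPM against 32.1 to 64.7 CPM (1.29, SE 0.13, adjusted p = 0.000145), and Fgfr3 at 23.7 to 34.2 against 5.37 to 15.1 CPM (1.46, SE 0.26). Fgfr4 was called higher but was low in the anterior section only, and Fgfr1 did not pass. The remaining higher gene was Flrt3, a membrane protein that binds FGF receptors (65.4 to 105 against 42.9 to 75.6 CPM; 0.61, SE 0.15, adjusted p = 0.0266), whose libraries overlapped.

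Most Notch signalling genes were lower in the middle: 13 of 17 were called lower, against 3.64% of all genes, and none higher, with a median of -1.41. In edgeR 1 gene of the list was higher at an unadjusted p under 0.05, while DESeq2 called 1 higher and 13 lower. Lfng, the enzyme that adds sugar to Notch receptors, stood at 1.79 and 2.70 CPM in the anterior-midgut, 4.24 and 4.80 CPM in the midgut-posterior, 17.0 and 16.3 CPM in anterior and 17.5 and 14.9 CPM in posterior libraries (-2.36, SE 0.45, adjusted p = 0.00623). The ends were alike and did not overlap the middle. Of the target genes, Hes1 stood at 35.8 to 44.1 against 54.6 to 88.0 CPM (-0.89, SE 0.13), Hes5 at 0.104 to 0.279 against 1.44 to 3.53 CPM (-3.61, SE 0.40) and Nrarp at 9.13 to 24.1 against 26.9 to 105 CPM (-1.86, SE 0.22). Not all of the 13 had this two-ended shape. The segmentation genes Hes7 and Dll3 were high in the posterior section only (31.8 and 13.2, and 25.4 and 18.9 CPM), and the ligand Jag1 was highest in the anterior section (149 and 128 CPM). The count was 7 with the midgut-posterior section alone and 8 against the anterior section alone. It also fell whichever single library was left out.

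**Figure D3:**
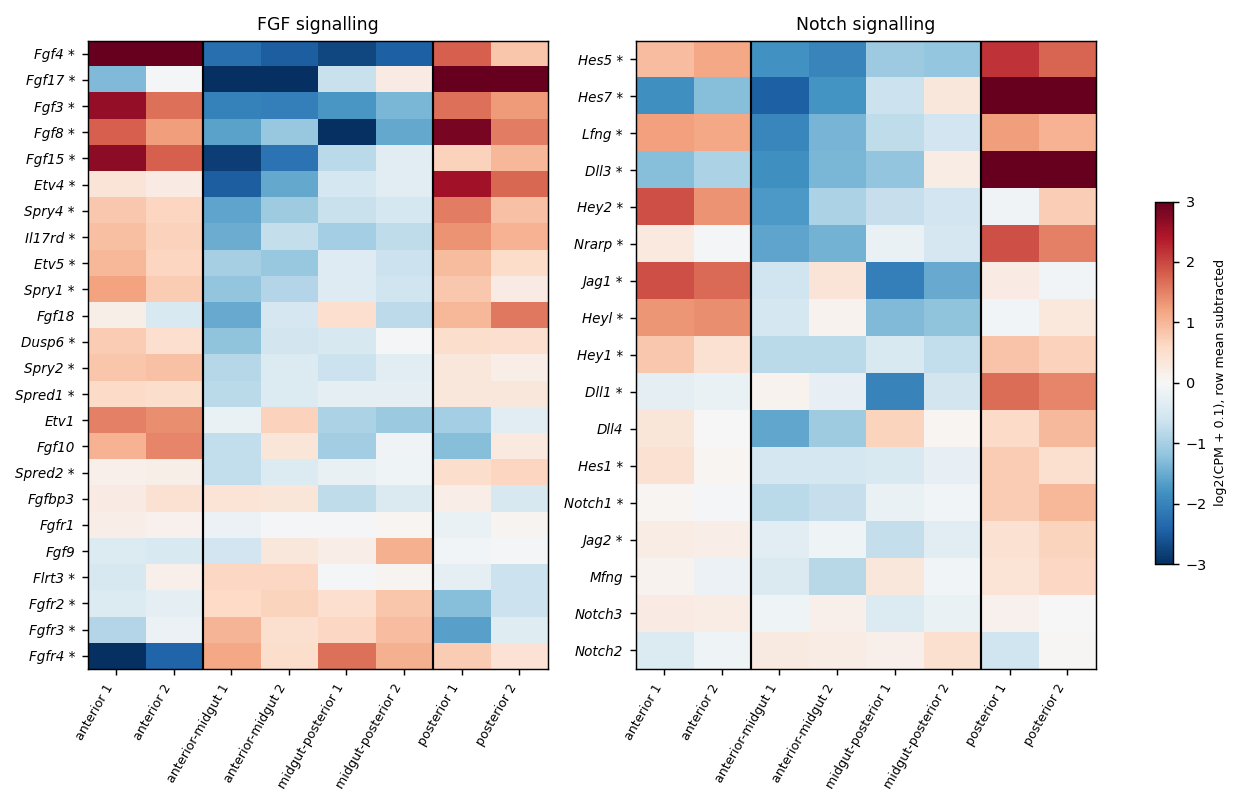
Each row is a gene of the FGF (left) or Notch (right) list and each column a section library from anterior to posterior, with the colour giving log2(CPM + 0.1) minus the row mean; an asterisk marks genes that passed in the average comparison. The 4 middle columns are blue for the FGF ligands and targets and for most Notch genes, and red for Fgfr2, Fgfr3 and Fgfr4.

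Some markers of ectoderm were lower in the middle as well, with Hes5 counted on both the Notch and the neural tube list. Of 14 neural tube genes 8 were lower in the middle and none higher (median -2.78), and the list summed to 8.19 to 12.8 CPM in the middle and 35.0 to 60.1 CPM at the ends; no list member was at 0 in all 8 libraries. Those lower included Sox3 (1.19 to 3.14 against 6.36 to 22.3 CPM), Pax7 and Pax2, which is also a kidney gene. Counts were 4 or 5 without anterior replicate 2, either anterior-midgut replicate or either midgut-posterior replicate. Of 9 surface ectoderm genes 4 were lower, none of them overlapping: Trp63, the regulator of stratified epithelium (0.388 to 1.13 against 2.96 to 10.6 CPM; -3.21, SE 0.39, adjusted p = 0.000729), Dlx5, Dlx3 and Gata3. That list summed to 28.6 to 39.9 CPM against 53.01 to 76.3 CPM, and its count fell to 1 without anterior-midgut replicate 1 and to 2 without either midgut-posterior replicate. No gene of either list was higher at an unadjusted p under 0.05 in edgeR, nor called by DESeq2. The part of these cells in the lower FGF and Notch levels was not tested.

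Wnt genes were lower in the middle for 13 of 32 (median -0.59) and higher for 4 (1 to 4 when 1 library was left out), but only 4 of the 13 did not overlap. Those were Sp5, a direct Wnt target (6.15 to 12.3 against 29.8 to 96.3 CPM; -2.69, SE 0.38, adjusted p = 0.00126), the inhibitor Dkk1 (4.24 to 5.93 against 10.3 to 39.4 CPM; -1.87, SE 0.22) and the ligands Wnt3 and Wnt6. Wnt6 stood at 1.30 to 4.84 against 10.9 to 21.7 CPM (-2.23, SE 0.58, adjusted p = 0.0308), and passed in only 2 of the 8 leave-outs. Others, such as Wnt3a, Wnt5b and Axin2, were high in the posterior section, and with the anterior section as the only end 5 passed. The count of 13 fell to 8 without anterior replicate 2 or posterior replicate 1 and to 7 without the first replicate of either middle section.

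Of 17 retinoic acid genes 5 were higher in the middle and 4 lower, with a median of 0.35. Aldh1a2, the enzyme that makes retinoic acid, stood at 156 and 214 CPM in the anterior-midgut, 93.2 and 98.7 CPM in the midgut-posterior, 20.2 and 46.5 CPM in anterior and 8.69 and 17.9 CPM in posterior libraries (2.66, SE 0.33, adjusted p = 0.000626). Dhrs3, a retinaldehyde reductase that retinoic acid induces, was at 12.6 to 15.3 against 4.54 to 6.53 CPM (1.40, SE 0.17, adjusted p = 5e-04), and Rdh10, which makes retinaldehyde, was higher by 1.02. The retinol carrier Rbp4, which is also on the visceral endoderm list, stood at 331 to 949 CPM in the middle and 5.96 to 147 CPM at the ends (4.50, SE 0.57, adjusted p = 0.000658). The receptor gene Rarb was called higher (0.93), but was low in the posterior section only. The degrading enzyme Cyp26a1 was lower in the middle, at 18.8 to 23.2 CPM against 33.6 and 24.1 CPM in anterior and 196 and 82.7 CPM in posterior libraries (-1.62, SE 0.23), a small gap to the anterior section. Of the other lower genes, Cyp26c1 and Crabp2 were highest in the anterior section and the receptor gene Rarg in the posterior one.

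Visceral endoderm was the list with the highest median. Of its 27 genes 23 were higher in the middle and none lower (median 3.24), and 21 of the 23 did not overlap; in edgeR none was lower at an unadjusted p under 0.05, while DESeq2 called 25 higher and none lower. Their summed level was 9580 and 3465 CPM in the anterior-midgut, 7503 and 4860 CPM in the midgut-posterior, 537 and 526 CPM in anterior and 635 and 1971 CPM in posterior libraries. Afp stood at 1409 and 485 CPM in the anterior-midgut, 1220 and 690 CPM in the midgut-posterior, 2.33 and 8.57 CPM in anterior and 34.0 and 314 CPM in posterior libraries (4.95, SE 0.74, adjusted p = 0.00168). The middle did not overlap the ends, but posterior replicate 2 came close to anterior-midgut replicate 2, and the posterior section was itself above the anterior one by 5.00 (adjusted p = 0.0129). Ttr, a carrier of thyroid hormone, showed the same order, with 765, 291, 573 and 394 CPM in the middle and 2.61, 14.5, 17.5 and 114 CPM from anterior to posterior (4.42, SE 0.72). Against the posterior section alone, 9 of the 27 genes passed.

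Many genes for lipid handling, complement and serine protease inhibitors, and lysosome and endocytosis were higher in the middle too. Of 25 genes for lipoproteins and lipids 13 were higher and none lower (median 1.27), among them Apoa1 (942, 290, 695 and 429 CPM in the middle, 1.64 to 150 CPM at the ends; 5.68, SE 1.07), Mttp, which loads lipid onto lipoproteins (89.0 to 194 against 14.0 to 42.6 CPM; 2.75, SE 0.30, adjusted p = 0.000372), and Soat2, which esterifies cholesterol (13.7 to 44.0 against 0.220 to 5.45 CPM; 4.27). Of 21 complement and serine protease inhibitor genes 12 were higher (median 2.15), such as Serpinf2 (26.1 to 60.2 against 0.486 to 9.25 CPM; 4.04, SE 0.50, adjusted p = 0.000636) and Kng1 (0.844 to 1.62 against 0.0252 to 0.251 CPM). Of 26 lysosome and endocytosis genes 16 were higher (median 0.62), from the uptake receptor subunits Cubn (4.86) and Amn (4.79) to the proteases Ctsh (2.97), Lgmn (2.31) and Ctsl (350 to 659 against 156 to 291 CPM; 1.36, SE 0.21). This last count was 8 to 10 without either anterior replicate, without the first replicate of a middle section or without posterior replicate 1. At an unadjusted p under 0.05 in edgeR, 0, 2 and 0 genes of these 3 lists were lower, and DESeq2 called 0, 1 and 0. Sterol synthesis, by contrast, held 1 higher gene of 18, near the 5.97% of all genes tested. Several genes stand on more than 1 list, so these counts are not independent.

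Other genes among the 15 with the largest smallest difference between a middle section and an end were Colec10, a collectin (31.1 to 57.6 against 0.177 to 7.37 CPM; 4.76, SE 0.79), Upk3b, a uroplakin of mesothelium (10.8 to 17.9 against 0.287 to 2.59 CPM; 3.63, SE 0.53), the mucin Muc13 (5.49), the sulfate transporter Slc13a4 (4.40), Apom (5.01), the export pump Abcc2 (5.85), the amino acid transporter Slc7a8 (3.96) and the carbonic anhydrase Car7 (3.17). For Upk3b the difference between the ends did not pass (0.79, adjusted p = 0.652). Posterior minus anterior was 5.84 for Abcc2, 4.49 for Muc13, 3.93 for Apom, 2.74 for Colec10 and -0.26 for Car7. Of these differences between the ends only that of Apom passed (adjusted p = 0.0399). With the posterior section as the only end, Abcc2, Muc13, Apom, Colec10 and Car7 did not pass (adjusted p = 0.109, 0.0584, 0.0598, 0.0652 and 0.0529). Against the anterior section alone Abcc2, Muc13, Apom and Colec10 passed (adjusted p from 0.00267 to 0.00893) and Car7 did not (0.0614). The call for Car7 was lost without anterior replicate 2 (37.3 to 99.4 against 0.830 to 12.4 CPM) and without anterior-midgut replicate 1.

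**Figure D4:**
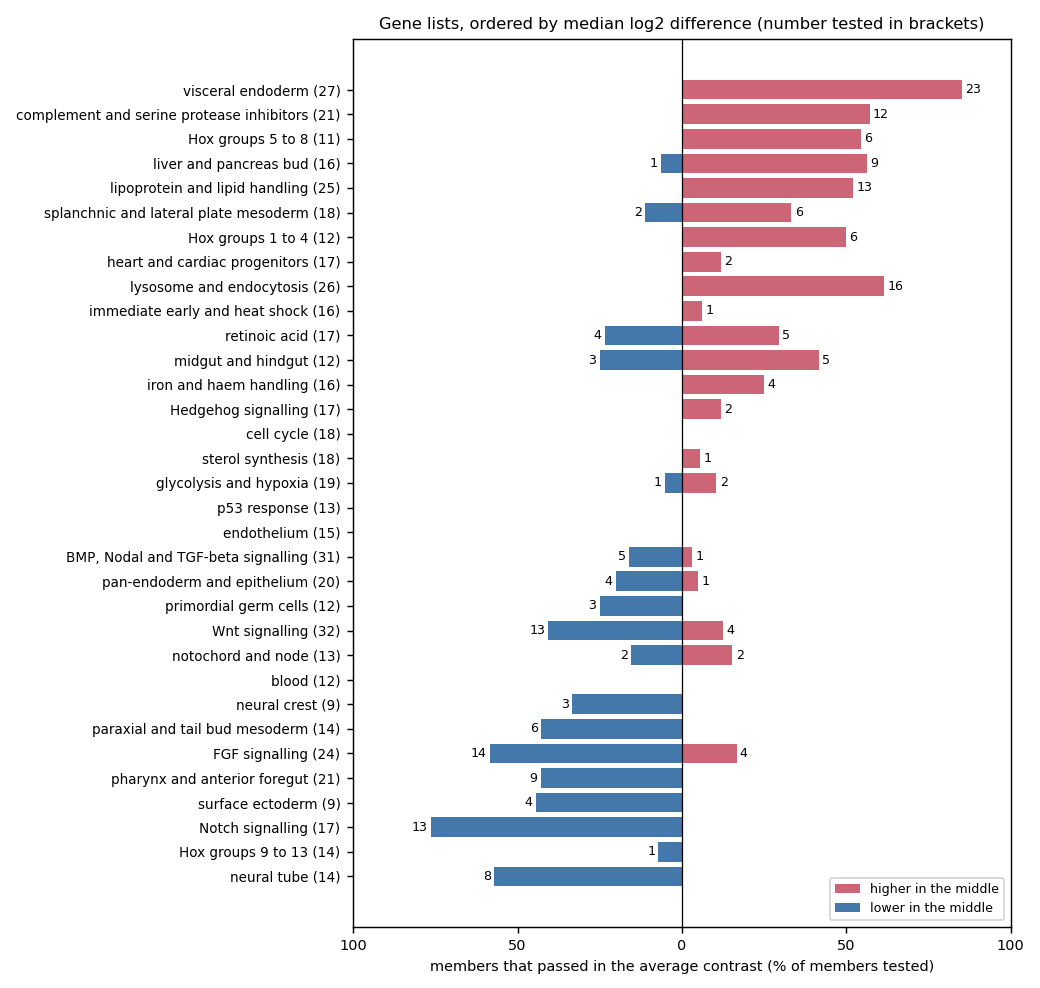
Bars give the share of each list's tested members (number in brackets) that passed in the average comparison, to the right in red for higher in the middle and to the left in blue for lower, with the number of genes at the bar end. Lists are ordered by their median log2 difference, from visceral endoderm (3.24) at the top to neural tube (-2.78) at the bottom; over all genes 5.97% were higher and 3.64% lower.

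Mesoderm was uneven across sections. Of 18 splanchnic and lateral plate genes 6 were higher in the middle and 2 lower (median 1.12), and the list summed to 1018 to 1727 CPM in the middle and 264 to 923 CPM at the ends, with posterior replicate 2 the highest end. Col3a1, a fibrillar collagen, stood at 530, 440, 339 and 647 CPM in the middle and at 38.7, 70.5, 7.57 and 133 CPM at the ends (2.98, SE 0.65, adjusted p = 0.0138). Nkx3-2, a factor of stomach and spleen mesoderm, was at 2.15 to 4.08 against 0.0488 to 0.479 CPM (3.73, SE 0.61), and Wt1, a mesothelial factor, at 4.27 to 9.66 against 0.391 to 2.45 CPM (2.50, SE 0.52). The number higher was 1 without anterior replicate 1, 3 without anterior-midgut replicate 1 or midgut-posterior replicate 2, and 13 without posterior replicate 2. The number lower was 0 without the first replicate of any section. The heart list summed highest in the anterior-midgut section and next in the anterior one, with 2375 and 1933 CPM in the former, 900 and 1474 CPM in the latter, 172 and 225 CPM in the midgut-posterior and 90.5 and 157 CPM in the posterior libraries. Only Tbx5 and Smarcd3 of 17 passed in the average comparison, and 5 genes did without posterior replicate 2. The part of the mesoderm in the higher Aldh1a2 and in other genes called higher was not tested.

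**Figure D5:**
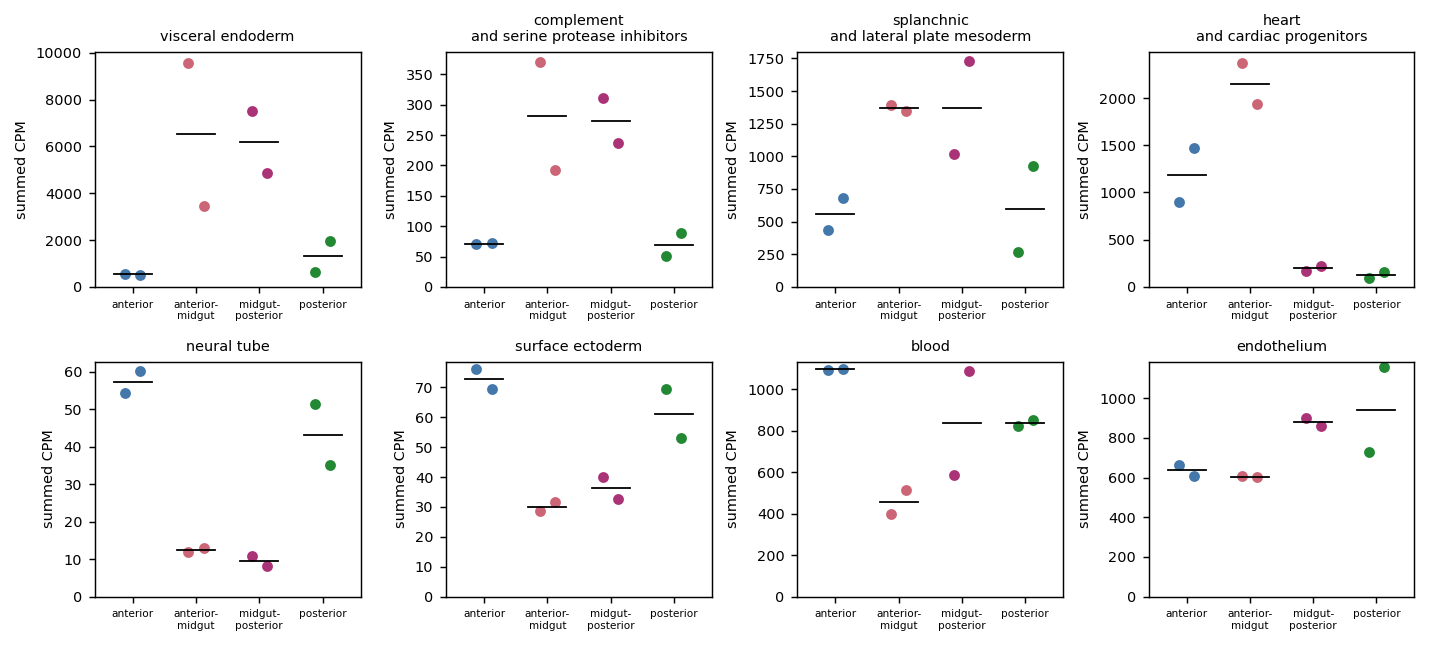
Summed CPM (vertical axes, from 0) of 8 gene lists in the 8 section libraries; dots are libraries and bars the means of 2. Visceral endoderm, complement, and splanchnic mesoderm lists are highest in the middle, neural tube and surface ectoderm lists are lowest there, and heart genes are highest in the anterior-midgut section.

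Genes that name gut regions were mixed. Of 12 midgut and hindgut genes 5 were higher and 3 lower. The lower ones, Cdx4, Evx1 and Tlx2, were highest in the posterior section and overlapped; their number was 1 without anterior replicate 2. Nepn, a secreted proteoglycan of the midgut, had the largest log2 difference of this list, at 191 and 221 CPM in the anterior-midgut, 717 and 454 CPM in the midgut-posterior, 1.13 and 4.44 CPM in anterior and 82.6 and 124 CPM in posterior libraries (4.36, SE 0.38, adjusted p = 8.43e-05). It too differed between the ends, by 5.23 (adjusted p = 0.000281). The microvillus protein Vil1 stood at 22.6 to 62.0 against 1.58 to 10.3 CPM (3.54, SE 0.39). Of 16 liver and pancreas genes 9 were higher and 1 lower. The lower gene was Tbx3, a T-box factor (28.0 to 44.5 against 44.3 to 62.1 CPM; -0.69, SE 0.17), and the number lower was 0 without the first replicate of any section or anterior-midgut replicate 2. Pdx1, the pancreas regulator, was higher, at 6.12 and 3.84 CPM in the anterior-midgut but only 0.614 and 1.61 CPM in the midgut-posterior libraries, where it overlapped the posterior section (0.830 and 0.427 CPM). Of 21 pharynx and foregut genes 9 were lower and none higher (1 at an unadjusted p under 0.05 in edgeR, none with DESeq2). The number lower was 4 without anterior-midgut replicate 1, and 5 without anterior replicate 1 or either midgut-posterior replicate. Only Foxe1 and Sox2 did not overlap, and both were highest in the anterior section. Sox2 stood at 120 and 75.9 CPM there, 5.81 to 16.7 CPM in the middle and 37.8 and 24.8 CPM in the posterior libraries (-2.28, SE 0.32, adjusted p = 0.00124). Of 20 general endoderm and epithelium genes Krt8 was higher and 4 were lower, among them Grhl2, Ovol1 and Esrp1, while Epcam (-0.56, SE 0.27, adjusted p = 0.248) did not pass. Grhl2, an epithelial regulator, was at 14.9 to 22.6 against 24.9 to 72.3 CPM (-1.29, SE 0.23). The 4 became 2 without anterior replicate 1, either anterior-midgut replicate, midgut-posterior replicate 2 or posterior replicate 1, and 8 without posterior replicate 2.

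Hedgehog genes were mostly not called. Shh stood at 41.5 to 84.0 CPM in the middle and 52.9 to 204 CPM at the ends (-0.96, SE 0.30, adjusted p = 0.0716). Of 17 genes only Ihh and Foxf1 passed (5 genes without posterior replicate 2), Ihh being low in the anterior section alone. Foxf1, a Hedgehog target of gut mesoderm, was at 182 to 243 CPM against 22.5 to 167 CPM (1.76, SE 0.47, adjusted p = 0.0347), with posterior replicate 2 the high end, and lost its call in 6 of the 8 leave-outs.

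A call in the average comparison does not always mean a middle peak, and Hox genes show this. Of 23 Hox genes of groups 1 to 8, 12 were called higher, but only 3 did not overlap, Hoxa4 and Hoxa5 among them. The 12 were 6 of groups 1 to 4, with 3 left without posterior replicate 1, and 6 of groups 5 to 8, with 3 left without anterior-midgut replicate 1, midgut-posterior replicate 2 or either posterior replicate. Hoxa5 stood at 22.9 to 50.7 CPM in the middle against 0.608 to 22.2 CPM at the ends (2.74, SE 0.33). The 6 genes Cdx2, Hoxb6, Hoxb7, Hoxc4, Hoxc8 and Hoxd4 were called higher although their mean CPM in the middle was below that at the ends. They climbed steadily from anterior to posterior: Hoxc8 stood at 0.0884 and 0.126, 5.82 and 5.11, 32.8 and 43.9, and 125 and 121 CPM along the tube. On the log2 scale a very low anterior section lowers the average of the ends. With 1 coefficient for the middle and 1 for the ends the log2 difference of Cdx2 was -1.63 in place of 1.19, and no Hox gene of groups 1 to 8 was called higher. The 706 non-overlapping genes cannot have this shape by construction, since every middle library of theirs lies above every end library.

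The other lists ranged from no calls to shares well above those of all genes tested, of which 5.97% were higher and 3.64% lower. No gene passed among 15 endothelial, 12 blood, 18 cell cycle and 13 p53 response genes; in edgeR 1, 3, 1 and 2 of them had an unadjusted p under 0.05, while DESeq2 called 0, 1, 0 and 1. The embryonic globin Hbb-bh1 stood at 195 to 506 CPM in the middle and 390 to 545 CPM at the ends (-0.60, SE 0.24, adjusted p = 0.149). Of 16 immediate early and heat shock genes, which respond to handling, only Atf3 passed (33.4 to 58.8 against 13.5 to 32.8 CPM; 1.02, SE 0.25, adjusted p = 0.0241), and it lost its call in 6 leave-outs. Of 31 genes for BMP, Nodal and TGF-beta signals 5 were lower, all with overlap, and Smoc2 was higher. The number lower was 1 without the first replicate of any section and 2 without the second replicate of any section but the posterior. The number higher was 0 without any first replicate or midgut-posterior replicate 2, and 4 without posterior replicate 2. In the paraxial and tail bud mesoderm list 6 of 14 genes were lower, all with overlap and with the highest mean in the posterior section; their number was 2 without anterior-midgut replicate 1 and 3 without anterior replicate 2, anterior-midgut replicate 2 or midgut-posterior replicate 1. T, a regulator of tail bud mesoderm, stood at 453 and 224 CPM in the posterior section and at 12.8 to 54.9 CPM elsewhere. Lower and higher genes numbered 2 and 2 of 13 for notochord and node and 3 and 0 of 9 for neural crest. They numbered 3 and 0 of 12 for primordial germ cells, and 1 and 0 of 14 for Hox groups 9 to 13. For iron and haem they numbered 0 and 4 of 16, and for glycolysis and hypoxia 1 and 2 of 19. Of sex-linked genes they numbered 0 and 0 of 5. Calls for the node gene Tppp3 (higher) and the glycolysis gene Pgk1 (lower) were lost in every leave-out. Their log2 differences then ran from 0.898 to 0.966 and from -0.481 to -0.369. The calls for Chrd (notochord, lower) and for Adm and Bnip3 (hypoxia, higher) were lost in most leave-outs. Of the genes of these lists with no call in a direction, edgeR gave an unadjusted p under 0.05 to 0 of the neural crest, germ cell, Hox, iron and sex-linked genes in that direction and to 2 paraxial genes that were higher; DESeq2 called none of the former and 2 higher paraxial genes.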

How the data were processed

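Each deposited file lists raw counts for 26795 gene symbols, without normalization. STAR is named per the submitters' processing notes; the sources used here do not give its version, the build and annotation, or how reads were counted. Repeated symbols (32) were added together, giving 26761 symbols (25562 found in a mouse gene name table). Genes were kept with filterByExpr (minimum count 10, minimum total 15), which left 17313. edgeR 4.0.16 in R 4.3.3 fitted all 16 libraries with a coefficient per group, TMM factors (1.01 to 1.07 in the sections) and a quasi-likelihood test (8 residual and 3.74 prior degrees of freedom). Every adjusted p comes from this fit, two-sided, over all genes tested. CPM values divide counts by the library total times its TMM factor; ranges run over the 4 libraries of a side.

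The middle was also compared with each end, and each middle section with both. Depth ran from 70987960 to 84509973 counts per section library. Libraries of a section differed with a mean chi-square per gene of 42.7 to 102 and were never merged. On this average, counting error was small beside the spread between libraries. The average does not show this for genes with few counts, such as Pax7 with 10 counts over the middle libraries. Alternative fits used RLE size factors, every gene with a count, DESeq2 1.42.0, only the section libraries, a replicate block, 1 coefficient per side, 1 section at a time and each library left out in turn. The steps were tested on simulated data.

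The grouping of the sections into middle and ends, the 34 gene lists and the tests were chosen with earlier results of these data known. Genes named by rule were the 15 in each direction with the largest smallest difference between a middle section and an end (non-overlapping libraries, at least 8 CPM on the higher side, no unnamed predicted genes), the members with the smallest adjusted p of each list (up to 4), and 12 key genes. Other list members and the 13 genes of the each-pair rule were named after their values were seen. Promoter windows came from a RefSeq table (GRCm38.p6). No other genome positions were used. Some genes and a motif are not reported here.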

Additional observations from a re-analysis of the deposited data

How the results depend on the processing

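In the average comparison, genes higher and lower in the middle numbered 1033 and 631. RLE size factors gave 1025 and 643, no filter 1106 and 643, DESeq2 1498 and 1096, and only the section libraries 1188 and 919. The midgut-posterior section alone gave 670 and 251, the anterior-midgut section alone 917 and 447, and 1 coefficient per side 548 and 317. Leaving out 1 library gave 562 to 1081 higher and 261 to 650 lower. The each-pair rule (8 and 5) gave 19 and 9 with no filter, 135 and 44 with DESeq2, 0 and 0 with only the section libraries (529 and 282 at an unadjusted p under 0.05 in edgeR), and from 0 to 21 higher and 0 to 9 lower when 1 library was left out. No label explains the replicate numbers, so they were not used as pairs in the main fit. Deviations from section means correlated by -0.00277 to 0.216 over 6 pairs of sections. Whether libraries with the same number share embryos was not tested. With a replicate block in the 8 section libraries the average comparison gave 1848 and 1496 genes, against 1188 and 919 without the block. The each-pair rule gave 1 and 4 with the block, against 0 and 0 without it. With 1 coefficient per side the sign turned for Cdx2 (-1.63), Hoxb6 (-0.36), Hoxc4 (-0.0153) and Hoxc8 (-1.49), none of them then past the threshold; for Hoxa10 (-2.30) values ran from -2.83 without anterior replicate 1 to 0.27 without anterior replicate 2. The cause of the other changes was not tested. Of 125 named genes that were called, 93 kept the call in every leave-out and 68 in every alternative that used all 4 sections. Genes under 1 CPM rest on few counts and are the least certain.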
